A study of Mus musculus with 9 samples.

Results

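The tachykinin genes described here are the precursor genes Tac1 and Tac2 and the receptor genes Tacr1 and Tacr3, taken by name from a table of read counts per gene. All 4 were present among its 18956 gene symbols and all 4 entered the tests. Bulk RNA was sequenced from tissue labelled as the anterior paraventricular nucleus of the thalamus of BALB/c mice, in 9 libraries. Of these, 3 came from mice exposed to 5 days of social defeat (smSDS), in which a mouse is confronted by an aggressor, and treated with (2S,6S)-HNK, a breakdown product of ketamine (stressed SHNK). Another 3 came from defeated mice given saline (stressed saline) and 3 from mice that were not stressed and got saline (non-stressed saline). Strain and tissue are shared by all groups. The sources used here give neither age, sex nor SHNK dose, and nothing in them ties a library to 1 animal or several. P-values below therefore measure the spread between these libraries, which may be technical.

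Tachykinins are neuropeptides cut from larger precursors and stored in dense-core vesicles. Tac1 encodes the precursor of substance P and neurokinin A, and Tac2 that of neurokinin B. Their receptors couple to Gq proteins and phospholipase C: the receptor encoded by Tacr1 prefers substance P and the one encoded by Tacr3 prefers neurokinin B. In the mouse brain, neurons of the medial habenula, which borders the paraventricular thalamus, are a known site of Tac1 and Tac2 expression, and Tac1 is also expressed by striatal projection neurons. In GRCm38 (GENCODE M21), Tac1 lies on chr6:7554879-7565834, Tac2 on chr10:127724478-127731768, Tacr1 on chr6:82402334-82560104 and Tacr3 on chr3:134829007-134934579. All 4 are protein-coding genes on the plus strand, and 0 other annotated genes overlap them on either strand.

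The sequence just upstream of the transcription start is shown for Tac2, the member with the largest differences between groups, for Tac1, the other precursor, and for Tacr3, the member that passed no test. The windows are taken from RefSeq (GRCm38.p6, plus strand) and hold only bases before the first annotated transcript start. That leaves 250 bases for Tac2 and Tacr3 and 68 for Tac1, and none for Tacr1, whose window lies inside a longer annotated transcript. Capitals mark matches to any of 5 short motifs, searched on both strands: an E-box (CACGTG), a half-site of the cyclic AMP response element (TGACG), an AP-1 site (TGANTCA), a homeodomain core (TAATTA) and a TATA box (TATAAA).
Tac2, chr10:127724228-127724477: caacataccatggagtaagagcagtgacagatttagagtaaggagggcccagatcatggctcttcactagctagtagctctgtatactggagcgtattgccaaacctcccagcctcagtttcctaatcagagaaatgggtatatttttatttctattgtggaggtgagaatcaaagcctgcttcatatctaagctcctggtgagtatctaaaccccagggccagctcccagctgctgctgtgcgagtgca
Tac1, chr6:7554811-7554878: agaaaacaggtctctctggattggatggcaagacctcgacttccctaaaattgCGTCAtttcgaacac
Tacr3, chr3:134828757-134829006: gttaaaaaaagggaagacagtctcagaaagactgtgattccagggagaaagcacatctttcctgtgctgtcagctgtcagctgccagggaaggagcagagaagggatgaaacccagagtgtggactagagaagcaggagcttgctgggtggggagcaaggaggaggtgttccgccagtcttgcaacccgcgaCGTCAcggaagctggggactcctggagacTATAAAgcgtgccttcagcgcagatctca
Over the full 250 bases before the RefSeq start, Tac2 held 0 matches to the 5 motifs. Tac1 held 2 half-sites, 1 E-box and 1 homeodomain core, Tacr3 held 1 half-site and 1 TATA box, and Tacr1 held 1 half-site. Among 27025 such windows of all genes, 17.9% held the half-site, 6.05% the E-box, 6.87% the AP-1 site, 4.90% the homeodomain core and 13.0% the TATA box. Tac1 had 17 CpG dinucleotides in its window, Tac2 had 2, and Tacr1 and Tacr3 had 7 each, against a median of 6 over all windows. A match describes the letters of the reference strain and is not evidence of binding.

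Totals ran from 32307869 to 51569143 counts per library, and the table listed no symbol at 0 in any library. Markers of the labelled tissue were present throughout: 9 paraventricular and midline thalamic genes summed to 3232 to 3596 TMM-scaled CPM (reads of the gene relative to library size) in stressed SHNK, 3117 to 3720 in stressed saline and 3366 to 3807 in non-stressed saline. Markers of the medial habenula differed between the groups. Of 13 listed, 10 were in the table, and together they summed to 51.8 to 60.9 CPM in stressed SHNK, 206 to 596 CPM in stressed saline and 72.6 to 123 CPM in non-stressed saline, ranges that do not overlap. The listed markers not in the table were Chrnb3, Chrnb4 and Slc18a3. As the table holds no symbol at 0, a marker silent in any library could not be among the 10. Pou4f1, a transcription factor that defines habenular neurons, had only 2 to 4 counts per library in stressed SHNK. It had 129 to 667 in stressed saline and 15 to 89 in non-stressed saline. The 6 ependymal markers summed to 72.2 to 110 CPM, 130 to 202 CPM and 64.8 to 81.9 CPM in the same order of groups. In bulk tissue, fewer cells of a type and less RNA per cell cannot be told apart. As the habenula marker sums did not overlap between groups, group and habenula marker level cannot be told apart here either.

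Tac2 was high in stressed saline and lowest in stressed SHNK. Its CPM was 0.652, 0.656 and 0.217 in the stressed SHNK libraries (31, 33 and 8 counts), 38.6, 155 and 83.7 in stressed saline and 4.41, 7.83 and 20.8 in non-stressed saline. The 3 groups did not overlap in any pair. Of all tested genes, 7.36% had every stressed saline library above every non-stressed saline library. Every stressed SHNK library lay below every stressed saline library for 15.9%, and below every non-stressed saline library for 11.5%. How many genes met more than 1 of these was not counted. Libraries of a group still spread widely, with the highest over the lowest at 3.02-fold in stressed SHNK, 4.02-fold in stressed saline and 4.72-fold in non-stressed saline.

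Tac1 moved less and was present in every library. It had 26.6, 24.3 and 33.3 CPM in stressed SHNK, 36.9, 58.0 and 39.5 CPM in stressed saline and 24.7, 25.7 and 20.7 CPM in non-stressed saline. All 3 stressed saline libraries were above the other 6, while stressed SHNK and non-stressed saline overlapped.

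Tacr1, the substance P receptor gene, had the lowest level per kilobase of exon of the 4 in every group. It had 0.946, 0.716 and 0.733 CPM in stressed SHNK (27 to 45 counts), 2.23, 7.60 and 4.28 CPM in stressed saline (105 to 355 counts) and 1.23, 0.814 and 1.89 CPM in non-stressed saline (26 to 77 counts). Again all 3 stressed saline libraries lay above the other 6. Tacr3, the neurokinin B receptor gene, had 8.14, 6.98 and 9.61 CPM in stressed SHNK, 7.58, 7.45 and 6.11 CPM in stressed saline and 9.98, 8.17 and 5.67 CPM in non-stressed saline, and the groups overlapped in every pair. Tacr2, the neurokinin A receptor gene, was in the table at 0.364 to 0.985 CPM (15 to 40 counts) and passed no test (edgeR adjusted p = 0.901 for any difference). Tac4 was not among the gene symbols of the table, so no value can be given for it.

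**Figure D1:**
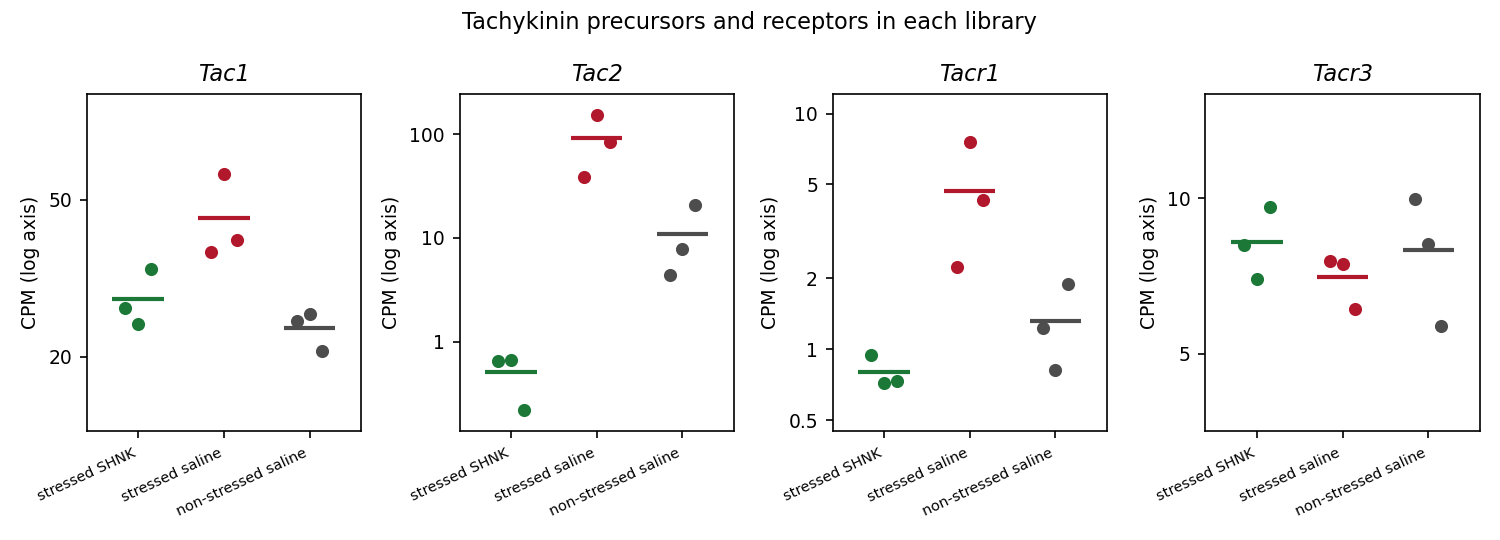
CPM of the 4 genes in each library (points) with the group mean (bar), on a log axis of its own range in each panel. For Tac2 the stressed saline libraries (38.6 to 155 CPM) lie above non-stressed saline (4.41 to 20.8) and stressed SHNK (0.217 to 0.656), whereas the 3 groups of Tacr3 overlap.

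Stressed saline against non-stressed saline compares defeated with non-stressed mice, all given saline. Tac2, Tac1 and Tacr1 were higher after defeat and Tacr3 did not pass the test. Tac2 averaged 92.4 ± 58.7 CPM in stressed saline and 11.01 ± 8.65 CPM in non-stressed saline (SD, n = 3 each), a log2 fold change of 3.07 ± 0.51 (standard error; edgeR adjusted p = 0.00970), or 8.38-fold. Only 4 of 18194 tested genes had a larger log2 fold change. Tacr1 averaged 4.70 ± 2.71 CPM in stressed saline and 1.31 ± 0.54 CPM in non-stressed saline, a log2 fold change of 1.83 ± 0.39 (adjusted p = 0.0377). Tac1 averaged 44.8 ± 11.5 CPM and 23.7 ± 2.62 CPM in the same order, a log2 fold change of 0.92 ± 0.17 (adjusted p = 0.0139). For Tacr3 the means were 7.05 ± 0.81 CPM in stressed saline and 7.94 ± 2.16 CPM in non-stressed saline, a log2 fold change of -0.17 ± 0.20 (adjusted p = 0.921). Its 95% interval, from -0.59 to 0.25, spans 0. Thus 3 of 4 members were called higher, and 0 lower; of all tested genes 1.15% were called higher and 0.0165% lower. All 3 had groups that did not overlap, as had 7.36% of all genes upwards and 5.53% downwards.

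Each of the 3 calls depended on which libraries were in the fit. When non-stressed saline replicate 1 was left out, all 3 fell short of significance (edgeR adjusted p = 0.0621 for Tac1, 0.0511 for Tac2 and 0.149 for Tacr1), as they did without its replicate 2 (0.0502, 0.0611 and 0.148) or without stressed saline replicate 2 (0.0580, 0.0518 and 0.234), the library with the highest Tac1, Tac2 and Tacr1. Tacr1 also missed the threshold without stressed saline replicate 3 (0.0696) or SHNK replicate 3 (0.0651), and with limma voom (0.168), no filter (0.0514), or only these 2 groups in the fit (0.0671). Directions did not change: over the 9 fits that left out a library, log2 fold changes ran from 0.69 to 1.04 for Tac1, 2.47 to 3.94 for Tac2 (3.94 without non-stressed saline replicate 3) and 1.29 to 2.18 for Tacr1. The habenula markers moved with them, 8 of 10 called higher and 0 lower (median log2 fold change 2.64, against -0.02 over all genes), as did 5 of 6 ependymal markers and 2 of 5 astrocyte markers, Gfap (1.51 ± 0.29, adjusted p = 0.0181) and Aqp4 (0.70 ± 0.13, adjusted p = 0.0161); their part in the result was not tested. With the habenula marker mean as a covariate 0 of all 18194 genes passed, against 213 without it, so the loss of the 3 calls is not particular to these genes. The log2 fold change was then 0.06 ± 0.39 for Tac2, 0.55 ± 0.35 for Tac1 and -0.47 ± 0.46 for Tacr1, whose sign changed. The marker mean was 0.73 ± 0.28 log2 CPM in stressed SHNK, 4.48 ± 0.81 in stressed saline and 2.19 ± 0.67 in non-stressed saline (SD). It thus followed the groups, so in this fit group and covariate can hardly be told apart.

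Stressed SHNK against stressed saline compares defeated mice given the metabolite with defeated mice given saline. Tac2, Tacr1 and Tac1 were lower with SHNK, and Tacr3 again did not pass. Tac2 averaged 0.508 ± 0.252 CPM in stressed SHNK and 92.4 ± 58.7 CPM in stressed saline, a log2 fold change of -7.44 ± 0.70 (edgeR adjusted p = 0.000187; 95% interval -8.93 to -5.95). It ranked 18193 of 18194 genes by log2 fold change from the highest down. Tacr1 averaged 0.799 ± 0.128 CPM in stressed SHNK and 4.70 ± 2.71 CPM in stressed saline, a log2 fold change of -2.55 ± 0.41 (adjusted p = 0.00465). Tac1 averaged 28.03 ± 4.68 CPM in stressed SHNK and 44.8 ± 11.5 CPM in stressed saline, a log2 fold change of -0.68 ± 0.16 (adjusted p = 0.0278). Tacr3 averaged 8.24 ± 1.32 CPM and 7.05 ± 0.81 CPM in the same order, a log2 fold change of 0.22 ± 0.20 (adjusted p = 0.548; 95% interval -0.20 to 0.64). In all, 3 of 4 members were called lower, and 0 higher; of all tested genes 3.96% were called lower and 2.45% higher. The groups of these 3 did not overlap, as for 15.9% of all genes downwards and 14.4% upwards. This comparison shares its stressed saline libraries with the one before, so a high value in those libraries enters both.

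Leaving out any of the 9 libraries in turn kept the calls of Tac2 and Tacr1, with log2 fold changes from -7.81 to -6.84 and from -2.89 to -2.01. Tac1 missed the threshold without stressed saline replicate 2 (-0.45, adjusted p = 0.110) or without SHNK replicate 1, 2 or 3 (adjusted p = 0.0600, 0.128 and 0.0526). Of the 10 habenula markers 9 were called lower and 0 higher (median log2 fold change -4.04, against -0.01 over all genes), as were 4 of 6 ependymal and 5 of 5 astrocyte markers; their part in the result was not tested. With the habenula marker mean as a covariate 1 of all 18194 genes passed, against 1167 without it, and that 1 was no member. Tac2 then had -2.26 ± 0.65 and Tac1 -0.09 ± 0.51, while Tacr1 took the opposite sign (1.21 ± 0.71). Here too the marker mean followed the groups, so group and covariate can hardly be told apart.

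Stressed SHNK against non-stressed saline sets the treated defeated mice against mice never stressed. No member passed, although Tac2 had groups that did not overlap. Its log2 fold change was -4.37 ± 0.70 (edgeR adjusted p = 0.0686; unadjusted p = 2.10e-05; 95% interval -5.87 to -2.87), with 0.508 ± 0.252 CPM in stressed SHNK and 11.01 ± 8.65 CPM in non-stressed saline. In this comparison 0.0055% of genes, 1 of 18194, was called, while 11.5% had every stressed SHNK library below every non-stressed saline library and 9.83% had every one above. The Tac2 difference passed with DESeq2 (adjusted p = 3.91e-05) and with only these 2 groups in the fit (0.0218). It also passed without non-stressed saline replicate 1 or 2 (0.0417 and 0.0225) or stressed saline replicate 1 or 2 (0.0206 and 0.0482), and was smallest, -3.50, without non-stressed saline replicate 3. Log2 fold changes were -0.72 ± 0.42 for Tacr1 (95% interval -1.63 to 0.19; adjusted p = 0.390), 0.24 ± 0.17 for Tac1 (-0.11 to 0.60; 0.472) and 0.05 ± 0.20 for Tacr3 (-0.37 to 0.47; 0.926). At unadjusted p under 0.05 Tac2 alone of the 4 passed, as did 3338 of all 18194 genes. Tested for a difference anywhere among the groups, a test that called 4.88% of all genes, Tac2 (adjusted p = 0.000259), Tacr1 (0.00581) and Tac1 (0.0131) passed and Tacr3 (0.744) did not.

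**Figure D2:**
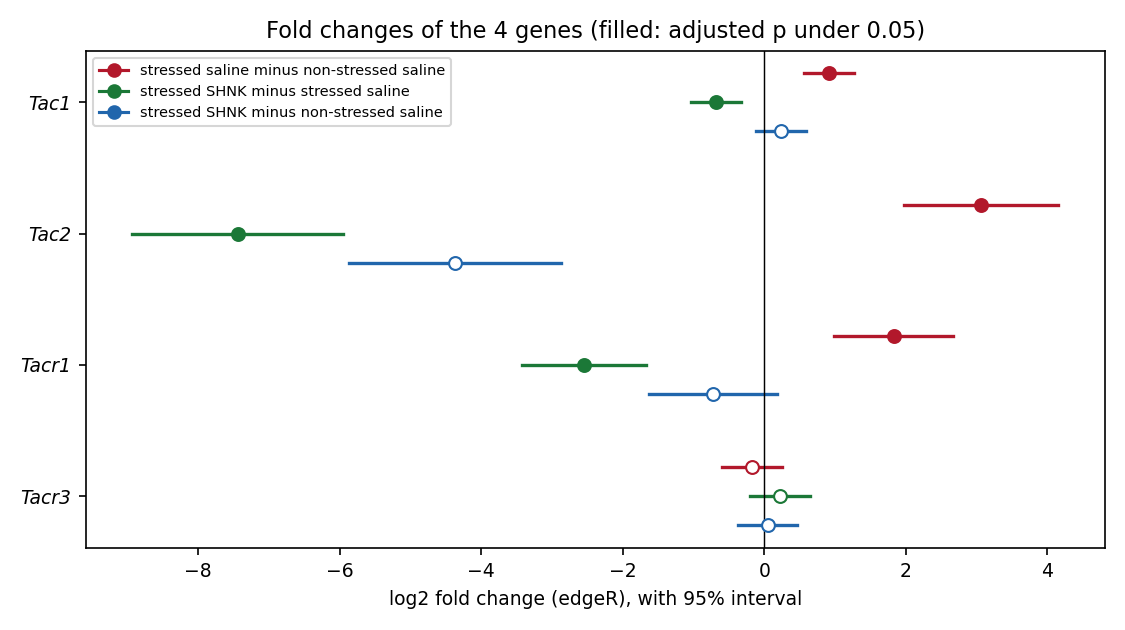
Log2 fold change of each gene in the 3 comparisons, from edgeR, with its 95% interval; filled points passed an adjusted p of 0.05. Tac2 spans the widest range, from 3.07 in stressed saline over non-stressed saline to -7.44 in stressed SHNK over stressed saline, and all 3 intervals of Tacr3 include 0.

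The 2 precursor genes did not move by the same amount. The log2 ratio of Tac2 to Tac1 CPM was -5.25, -5.11 and -6.98 in stressed SHNK, 0.06, 1.42 and 1.08 in stressed saline and -2.47, -1.71 and 0.01 in non-stressed saline. The groups did not overlap in any pair. The mean ratio was higher by 2.25 in stressed saline than in non-stressed saline, lower in stressed SHNK than in stressed saline (a difference of -6.63) and lower in stressed SHNK than in non-stressed saline (-4.39). Each difference had an exact two-sided permutation p of 0.10, the smallest that 3 libraries against 3 allow, so this design cannot reach 0.05 for it.

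Levels of different genes were compared only per kilobase of exon (GENCODE M21). In stressed SHNK the order was Tac1 (22.8 ± 3.81 CPM per kb), Tacr3 (2.19 ± 0.35), Tac2 (0.577 ± 0.286) and Tacr1 (0.158 ± 0.025), and no neighbours in that order overlapped. In stressed saline it was Tac2 (105 ± 66.6 CPM per kb), Tac1 (36.4 ± 9.36), Tacr3 (1.87 ± 0.22) and Tacr1 (0.933 ± 0.538), with only Tac2 and Tac1 overlapping. In non-stressed saline Tac1 (19.3 ± 2.13 CPM per kb) and Tac2 (12.5 ± 9.82) overlapped, above Tacr3 (2.11 ± 0.58) and Tacr1 (0.260 ± 0.108). Per kilobase, Tac2 exceeded Tac1 in 0 of 3 stressed SHNK libraries, 3 of 3 stressed saline libraries and 1 of 3 non-stressed saline libraries.

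Set against the summed habenula markers of the same library, the 4 genes differed. Tacr1 had 1.20 to 1.56 CPM per 100 CPM of those markers in stressed SHNK, 1.08 to 1.28 in stressed saline and 1.12 to 1.53 in non-stressed saline, so that the highest of the 9 libraries was 1.45-fold above the lowest and the groups overlapped. Tac2 had 0.356 to 1.27 CPM per 100 CPM in stressed SHNK, 18.7 to 26.0 in stressed saline and 5.32 to 16.9 in non-stressed saline, a 73.1-fold span with no overlap of groups. The Tac1 ratio was highest in stressed SHNK, where the marker sum was lowest, with no overlap between that group and the rest. It was 43.9 to 54.6, 9.75 to 17.9 and 16.8 to 35.3 CPM per 100 CPM in the same order of groups. The Tacr3 ratio was also highest in stressed SHNK, at 13.5 to 15.8, 1.25 to 3.67 and 4.59 to 12.04, although Tacr3 CPM overlapped in every pair of groups. Neither separation held against every marker. With Gng8, Nhlh2, Gpr139, Chat or Slc5a7 alone, stressed SHNK overlapped non-stressed saline for Tac1 and for Tacr3. These ratios describe the 9 libraries, and were not tested. Gpr151 at 28.6 to 34.1 CPM and Nhlh2 at 12.4 to 15.6 CPM hold most of the marker sum in stressed SHNK, and the ratios depend on them. With both left out of the sum, a choice made after seeing the data, the span over the 9 libraries was 21.5-fold for Tac2 and 3.35-fold for Tacr1. Tac2 then had 1.93 to 6.11 CPM per 100 CPM in stressed SHNK, 34.5 to 41.6 in stressed saline and 18.3 to 32.4 in non-stressed saline, still with no overlap. Tacr1 then had 6.52 to 6.67, 1.99 to 2.04 and 2.94 to 5.11 in the same order, so that its groups no longer overlapped. Against each of the 10 markers alone the span ran from 6.25-fold (Pou4f1) to 401-fold (Nhlh2) for Tac2 and from 1.97-fold (Gpr151) to 42.8-fold (Chat) for Tacr1. Against Htr5b alone the Tac2 groups overlapped, at 20.5 to 254, 125 to 164 and 92.2 to 216 CPM per 100 CPM. Htr5b is the nearest profile to Tac2 in these same libraries, so a small difference follows in part from that choice. In stressed SHNK this ratio rests on 13 to 50 Htr5b counts and 8 to 33 Tac2 counts. The groups also overlapped against Pou4f1 alone. Against Gng8, Gpr139 or Chat alone only stressed saline and non-stressed saline overlapped. Against Nwd2, Chrna3, Gpr151, Nhlh2 or Slc5a7 alone no groups did.

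**Figure D3:**
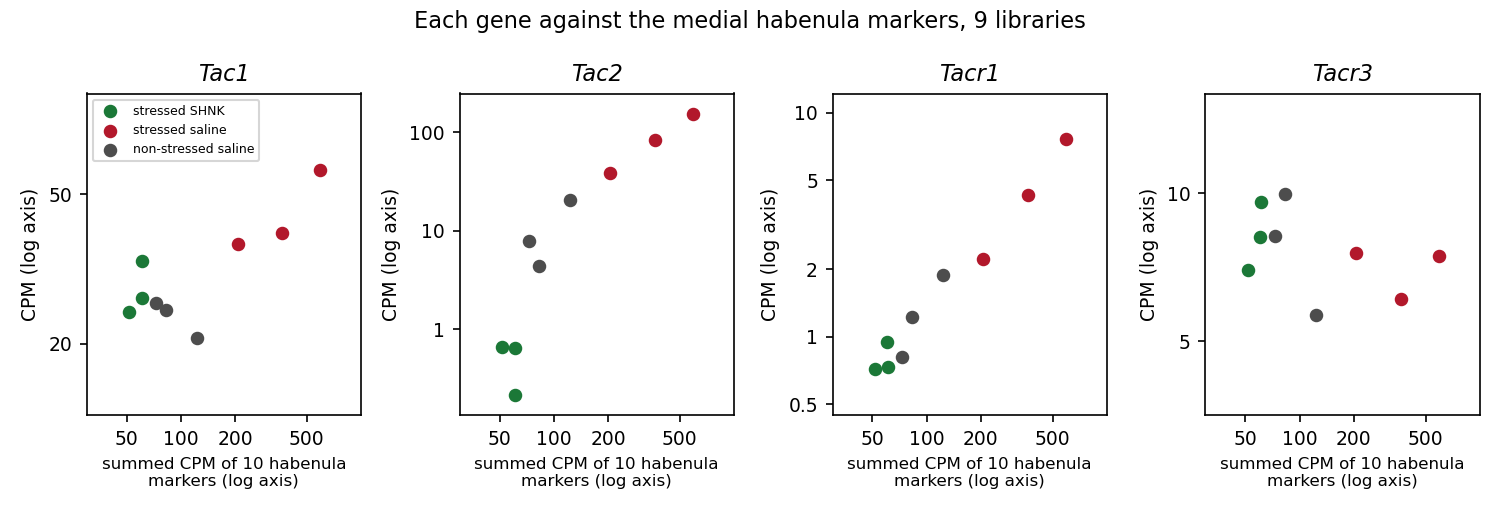
CPM of each gene (vertical, log axis) against the summed CPM of 10 medial habenula markers (horizontal, log axis) in the 9 libraries, coloured by group. Tacr1 keeps between 1.08 and 1.56 CPM per 100 CPM of the markers in this sum, which Gpr151 and Nhlh2 dominate in stressed SHNK (a 1.45-fold span, or 3.35-fold without those 2 markers). Tac2 lies lowest in the 3 stressed SHNK libraries, and Tacr3 stays between 5.67 and 9.98 CPM.

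Of 15 genes of precursor processing and dense-core vesicles, 1 was called higher and 0 lower in stressed saline over non-stressed saline (median log2 fold change -0.05), where 1.15% of all genes were higher and 0.0165% lower. The one was Pcsk1, a prohormone convertase, with 9.25 ± 1.14 CPM in stressed saline and 4.35 ± 0.74 CPM in non-stressed saline (1.09 ± 0.24, edgeR adjusted p = 0.0386). The call was lost without any 1 of 6 libraries (non-stressed saline replicates 1 to 3, stressed saline replicates 2 and 3, SHNK replicate 3; adjusted p from 0.0565 to 0.154), with limma voom (0.0735) and with no filter (0.0531). In stressed SHNK over stressed saline 1 was lower and 0 higher (median -0.15), where 3.96% of all genes were lower and 2.45% higher. This was Cadps2, a protein of dense-core vesicle release, with 36.4 ± 5.01 CPM in stressed SHNK and 67.3 ± 23.8 CPM in stressed saline (-0.89 ± 0.20, adjusted p = 0.0194; not past the threshold without stressed saline replicate 2 or SHNK replicate 2 or 3, adjusted p = 0.0662, 0.0731 and 0.117).

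Among 8 peptidases known to cut tachykinins, 0 were called in stressed saline over non-stressed saline (1.17% of all genes were, in either direction). With SHNK 1 was lower and 0 higher than in stressed saline (median -0.21), beside the same 3.96% and 2.45% of all genes. It was Mme, which encodes neprilysin, the membrane peptidase that degrades substance P. Mme had 0.604 ± 0.041 CPM in stressed SHNK and 2.50 ± 1.97 CPM in stressed saline (-2.05 ± 0.46, adjusted p = 0.0203). Without stressed saline replicate 2 or SHNK replicate 2 or 3 it missed the threshold (adjusted p = 0.0888, 0.0888 and 0.101), and its log2 fold change was -1.17 without the first of these. In stressed saline over non-stressed saline Mme had 1.82 ± 0.46 (adjusted p = 0.0806).

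Of 18 genes of Gq signalling and the sodium leak channel downstream of these receptors, 0 were called in stressed saline over non-stressed saline (median -0.09). With SHNK 3 were higher and 1 lower than in stressed saline (median 0.01), where 6.41% of all genes were called. Plcb4, a phospholipase C that Gq activates and a gene abundant in thalamus, had 180 ± 10.95 CPM in stressed SHNK and 127 ± 11.9 CPM in stressed saline (0.50 ± 0.089, adjusted p = 0.00743), and passed in all 9 fits that left out a library. Rgs2 and Rgs4, which shut off Gq, had 0.40 ± 0.0997 and 0.37 ± 0.084, and Plcb3, another phospholipase C, had -0.72 ± 0.18 (adjusted p from 0.0207 to 0.0316). Rgs2 missed the threshold without stressed saline replicate 1 or 2 or SHNK replicate 2 or 3 (adjusted p from 0.0927 to 0.127). Rgs4 and Plcb3 missed it without any of the 3 stressed saline libraries in turn or SHNK replicate 2 or 3 (adjusted p from 0.0517 to 0.159). The 7 receptor kinases and arrestins, which desensitise tachykinin receptors, gave 0 calls in either comparison, where 1.17% and 6.41% of all genes were called. In stressed SHNK over stressed saline 7 of 7 lay below 0 (median -0.25). Of all 18194 genes, 8852 lay above 0 there (median -0.01). The astrocyte markers of these libraries summed to 937 to 1022 CPM in stressed SHNK, 1236 to 1550 CPM in stressed saline and 1232 to 1339 CPM in non-stressed saline. Any relation of these markers to the 7 genes was not tested.

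Of 25 other neuropeptide precursors tested, 2 were higher and 0 lower in stressed saline over non-stressed saline (median 0.19), beside 1.15% and 0.0165% of all genes. They were Nppa, the precursor of atrial natriuretic peptide (3.12 ± 0.37, adjusted p = 0.00300), and Adcyap1, the precursor of PACAP (1.01 ± 0.16, adjusted p = 0.00970). The same 2 were lower in stressed SHNK than in stressed saline, by log2 fold changes of -6.15 ± 0.47 (adjusted p = 5.76e-05) and -0.87 ± 0.16 (adjusted p = 0.00869). Adcyap1 missed the threshold without stressed saline replicate 2 in the first comparison (0.0518) and without SHNK replicate 2 in the second (0.0533). In the second comparison, where 2.45% of all genes were higher and 3.96% lower, 2 others of the 25 were higher (median -0.0028, against -0.01 over all genes). These were Cck, the cholecystokinin precursor (417 ± 65.2 CPM in stressed SHNK and 239 ± 35.2 CPM in stressed saline; 0.81 ± 0.14, adjusted p = 0.00639), and Calca, the precursor of CGRP and calcitonin (53.9 ± 13.6 CPM and 22.5 ± 9.23 CPM; 1.26 ± 0.26, adjusted p = 0.0146). Calca missed the threshold without stressed saline replicate 2 or SHNK replicate 2 or 3 (adjusted p from 0.0565 to 0.0935). In stressed SHNK over non-stressed saline, 0 genes of the 5 lists were called. With the habenula marker mean as a covariate, under which 0 and 1 of all genes passed in the 2 comparisons with stressed saline, none of the listed genes named here did, and in stressed SHNK over stressed saline Adcyap1 (0.30), Cadps2 (0.39), Calca (-0.62), Mme (0.38) and Plcb3 (0.0126) changed sign.

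**Figure D4:**
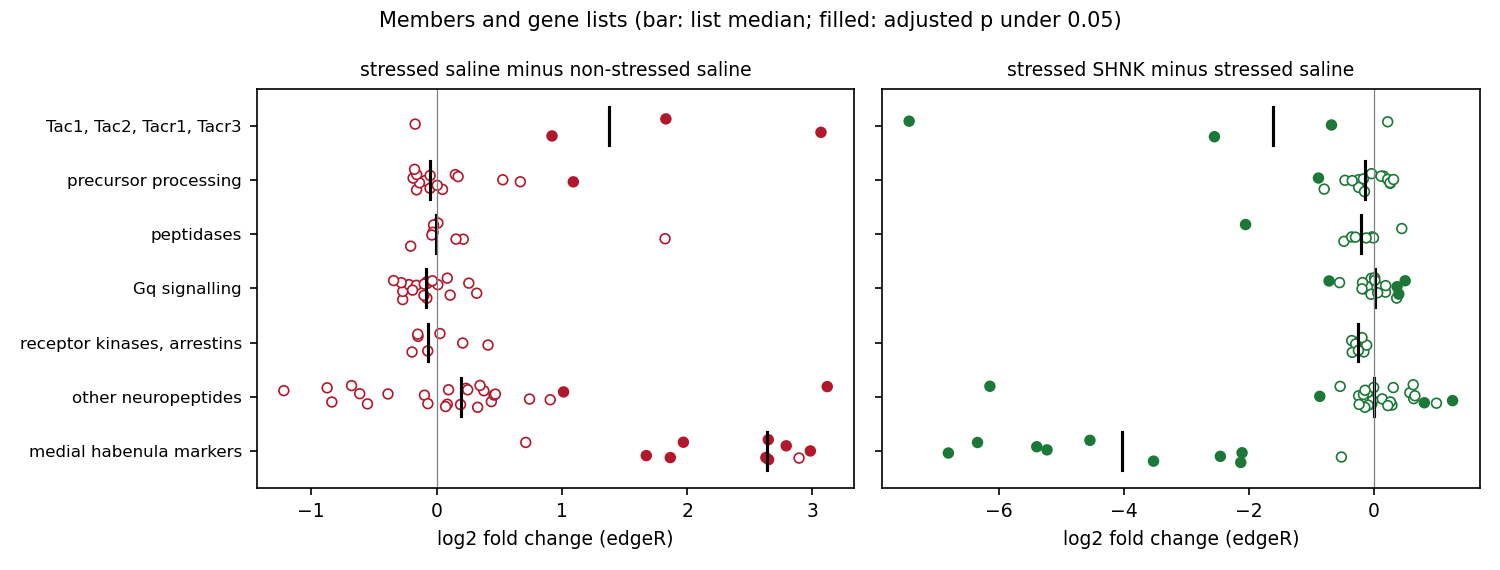
Log2 fold changes of the 4 members, the tested genes of 5 related lists and 10 medial habenula markers, in stressed saline over non-stressed saline (left) and stressed SHNK over stressed saline (right); the bar is the list median and filled points passed an adjusted p of 0.05. The habenula markers lie at medians of 2.64 and -4.04, and the medians of the 5 lists lie between -0.25 and 0.19.

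The 9 markers of striatum and septum summed to 68.7 to 97.9 CPM in stressed SHNK, 94.9 to 134 CPM in stressed saline and 78.7 to 81.4 CPM in non-stressed saline, with 1 of 9 higher in stressed saline over non-stressed saline and 1 of 9 lower in stressed SHNK over stressed saline. In both cases the gene was Ppp1r1b (1.17 ± 0.19 and -1.26 ± 0.19). The other genes of this list were called in neither. Of all 9, 5 had a log2 fold change above 0 in stressed saline over non-stressed saline and 4 in stressed SHNK over stressed saline. Of the other marker lists, hypothalamus had 1 of 8 tested genes higher in stressed saline over non-stressed saline and 1 of 8 lower in stressed SHNK over stressed saline. Choroid plexus (5 tested) and endothelium (3) had 1 gene each lower in stressed SHNK over stressed saline and 0 called in stressed saline over non-stressed saline. GABA neurons (2 tested), oligodendrocytes (4) and microglia (4) had 0 calls. The thalamic list had 0 of 9 called in the first comparison and 1 of 9 higher in the second. Of all genes, 1.15% were called higher and 0.0165% lower in the first, and 2.45% higher and 3.96% lower in the second. No marker list had a call in stressed SHNK over non-stressed saline, where only 1 of all 18194 genes was called.

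Genes whose profile over the 9 libraries was nearest to each member were found by the root mean square difference of log2 CPM, each profile centred on its own mean, among 12552 named genes whose log2 CPM averaged 1 or more. Nearest to Tac2 were Htr5b (0.95), Nwd2 (0.98), Chrna3 (0.998), Nr4a2 (1.19) and Scube1 (1.35), against a median of 3.10 over all candidates; the first 3 are on the habenula marker list. Nearest to Tacr1 were Nfam1 (0.13), Prkcq (0.19), Lrrc55 (0.20), Lsp1 (0.23) and Cabp1 (0.24), against a median of 1.12. For Tac1 they were Lcorl (0.14), Cp (0.16), Enkur (0.17), Fam241a (0.18) and Hopx (0.18), against 0.47. Tacr3 had a flat profile that 3381 candidates matched within 0.25, first among them Adgrg2 (0.092), Platr25 and Oprk1 (0.11 each). Among the members, the nearest pair was Tac1 and Tacr3 (0.50) and the farthest Tac2 and Tacr3 (3.23). Even the nearest pair lay farther apart than the median candidate from Tac1 (0.47) or from Tacr3 (0.30), so their profiles were not alike. A member that varies more has fewer near neighbours by this measure.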

How the data were processed

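RNA was extracted with a Direct-zol kit, and 100 ng went into SMARTer Ultra low RNA and TruSeq libraries, per the labels' protocols. The authors deposited read counts per gene symbol, whole numbers with no normalization. The tools named in the submitters' processing notes are Trimmomatic 0.38, HISAT2 and StringTie, and the builds GRCm38 and mm10; their settings and the strand option of the counting are not given there. The lowest count in the table is 1, so a gene silent in any library is outside it.

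Genes were kept with filterByExpr in edgeR 4.0.16 (R 4.3.3; minimum count 10, minimum total 15), which left 18194 of 18956. After TMM scaling, a quasi-likelihood model without covariates took in all 9 libraries. P-values were adjusted by Benjamini-Hochberg across every gene kept, with 0.05 as the threshold. The standard error is the log2 fold change divided by the square root of F. Log2 CPM used a prior count of 2. The common biological coefficient of variation was 0.132. Counts are low, and counting error larger, for Tac2 in stressed SHNK, Tacr1 and Tacr2. Replicates of a group differed by 13.4 to 31.6 times the sampling noise (chi-square per degree of freedom), so no library was counted as a copy. The fit was also run on simulated data, in which genes varied independently and only stressed saline was changed. Those data held no shift shared by the markers of a tissue, so no conclusion about the calls here is drawn from that run.

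The 4 members and the 17 gene lists were chosen with earlier results of these data known. Besides the members, the text names list genes past the threshold (at most 4 per list and comparison), the 5 nearest profiles per member, and Adcyap1, Pcsk1, Pou4f1 and Chat; Tacr2, Ppp1r1b, Gpr151, Nhlh2 and Mme under defeat were named after their values were seen. The habenula markers set singly against the members were also named after their values were seen. Chat, the enzyme of acetylcholine synthesis, had a log2 fold change of 2.89 ± 0.75 in stressed saline over non-stressed saline (adjusted p = 0.0892) and -4.54 ± 0.84 in stressed SHNK over stressed saline (adjusted p = 0.00861; 0.0517 and 0.0568 without SHNK replicate 2 or 3; log2 fold change -6.27 without SHNK replicate 1 and -3.79 without stressed saline replicate 2). Alternatives were DESeq2 1.42.0, DESeq2 size factors in edgeR, voom (limma 3.58.1) with a weight per sample, no filter, a replicate block, only the compared groups, the habenula marker mean as a covariate, a prior count of 0.5 for the ratio, other sums of habenula markers (added after seeing the data) and leaving out each library. No protein sequence was used here.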

Additional observations from a re-analysis of the deposited data

How the results depend on the processing

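Over 12 fold changes of the 4 members and 16 alternatives each, 152 of 192 values kept their direction and their side of the threshold; with DESeq2 size factors all 12 did. Under the habenula covariate 0 members were called in each comparison and in the test of any difference, and 0, 1, 1 and 0 genes in all for stressed saline over non-stressed saline, stressed SHNK over stressed saline, stressed SHNK over non-stressed saline and any difference. It turned Tacr1 (-0.47, 1.21 and 0.75 in the 3 comparisons) and Tacr3 (0.31, -0.54 and -0.23). It also turned Adcyap1 (0.30), Cadps2 (0.39), Calca (-0.62), Chat (2.11), Mme (0.38) and Plcb3 (0.0126) in stressed SHNK over stressed saline and Pou4f1 (-0.70) in stressed saline over non-stressed saline. Chat and Pou4f1 are themselves among the markers averaged into this covariate. Each was adjusted for a mean that contains it, so no conclusion is drawn from their change of sign. Tacr3, never called, also changed sign with limma voom (-0.0092, stressed SHNK over non-stressed saline). Leaving out 1 library moved it between -0.37 and 0.03 (0.0336) in stressed saline over non-stressed saline, above 0 only without non-stressed saline replicate 1, and between -0.14 and 0.25 in stressed SHNK over non-stressed saline, below 0 without non-stressed saline replicate 3 (-0.14) or SHNK replicate 3 (-0.07). The cause was not tested.

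For all genes, DESeq2 called 472, 2005, 994 and 2102 in the same order, and limma voom 102 and 2377 for the comparisons with stressed saline and 1824 for any difference, against 213, 1167, 1 and 888 by edgeR. For stressed SHNK over non-stressed saline, no filter called 0 genes and a fit of only these groups called 9. There 1 member, Tac2, was called by DESeq2 and by the fit of only these groups. Leaving out 1 library gave 40 to 306, 176 to 1385, 0 to 749 and 187 to 1492 called genes, and 0 to 3, 2 to 3, 0 to 1 and 2 to 3 called members. The log2 ratio of Tac2 to Tac1 kept its direction throughout, from 1.70 to 2.94, -7.03 to -6.04 and -4.93 to -3.69 in the 3 comparisons.

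Replicate numbers did not pair the samples: deviations of same-numbered libraries correlated at -0.1002 to 0.1055, and 1 of 9 libraries correlated best with its own number. With the replicate block 177, 878, 6 and 685 genes were called. Tac2 then passed in stressed SHNK over non-stressed saline (-4.25, adjusted p = 0.0231), so that 1 member was called there, and Tacr1 (1.76, adjusted p = 0.0705) and Pcsk1 (adjusted p = 0.0631) missed the threshold in stressed saline over non-stressed saline. Low counts limit Tac2 in stressed SHNK (8 to 33 counts) and Tacr1 outside stressed saline (26 to 77).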
